A study of Mus musculus with 36 samples.

Results

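The genes described here encode proteins that bind precursor mRNA in the nucleus and build the spliceosome: the SR splicing factors (Srsf), the heterogeneous nuclear ribonucleoproteins (Hnrnp), the SF3A and SF3B subunits of the U2 particle (Sf3), the proteins of the small nuclear ribonucleoprotein particles (Snrp) and the U2 auxiliary factor (U2af). They were taken by symbol from probe sets with a single gene symbol, pseudogene symbols left out, and the probe set with the highest mean signal across the 36 arrays stood for the gene. This gave 50 genes (10 Srsf, 19 Hnrnp, 9 Sf3, 9 Snrp and 3 U2af) of 18193 represented genes, and 49 of them were bright enough to be tested. The exception was U2af1l4, a relative of U2af1, with a median of 2.30 in whole RNA. Hnrnpa3, Snrpa, Snrpd1 and Snrpd2 were measured only by probe sets shared with other genes and are outside the 50.

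RNA came from the peripheral blood of 18 male mice aged 8 weeks, 3 from each of the inbred strains C57Bl/6J, 129S1/ImJ, FVB/NJ, A/J, DBA/2J and C3H/HeJ. The labels name no allele and no treatment of the mice other than isoflurane anaesthesia at blood collection. Each mouse gave an array of whole (untreated) RNA and an array of GLOBINclear RNA, in which alpha and beta globin mRNA had been reduced with capture oligonucleotides, so that there were 12 groups of 3 Affymetrix arrays. The comparisons ask how the measured signal of these genes differs between the preparations and among the strains. The preparations differ by the whole globin reduction procedure, so the part of the globin messages alone is not isolated. All values are log2 signals as deposited, and a difference of 1 on this scale is a 2-fold change. Because blood was measured in bulk, fewer cells of a type and less RNA per cell cannot be told apart.

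Splicing removes introns from precursor mRNA. SR proteins bind exons and recruit the machinery, whereas many hnRNP proteins coat the transcript and can repress splice sites. U2AF reads the end of the intron and helps the U2 particle, with its SF3A and SF3B complexes, to settle on the branch point. The Sm proteins, encoded by several Snrp genes, form a ring around the small nuclear RNAs. Mature red cells have no nucleus, and in blood the transcripts of these genes are found in leukocytes, and in part in reticulocytes and platelets, which retain RNA.

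Promoter sequences were available from RefSeq (mouse build GRCm38.p6) for 44 of the 50 genes, as 61 windows of 300 bases that span 250 bases before to 50 bases after the annotated start. Shown here are the 250 bases before the start of the gene with the largest rise after globin reduction (Snrpg) and of the genes that differed among strains in both preparations (Hnrnpul1 and Srsf6), each 5′ to 3′ on the strand of the gene. Capitals mark matches on either strand to CCGGAAG (an ETS motif), GGGCGG (the GC box) and CCAAT.
Snrpg, chr6:86371290-86371539, plus strand: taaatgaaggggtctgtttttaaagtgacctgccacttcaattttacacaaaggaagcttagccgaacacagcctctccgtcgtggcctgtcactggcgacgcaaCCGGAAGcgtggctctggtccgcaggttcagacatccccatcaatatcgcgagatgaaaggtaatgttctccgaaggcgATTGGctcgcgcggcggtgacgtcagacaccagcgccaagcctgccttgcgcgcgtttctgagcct
Hnrnpul1, chr7:25754760-25755009, minus strand: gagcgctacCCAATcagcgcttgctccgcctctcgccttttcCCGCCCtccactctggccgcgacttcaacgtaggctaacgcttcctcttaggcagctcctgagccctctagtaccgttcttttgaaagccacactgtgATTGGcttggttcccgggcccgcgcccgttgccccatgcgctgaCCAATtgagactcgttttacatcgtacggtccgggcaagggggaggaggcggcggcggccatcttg
Srsf6, chr2:162931258-162931507, plus strand: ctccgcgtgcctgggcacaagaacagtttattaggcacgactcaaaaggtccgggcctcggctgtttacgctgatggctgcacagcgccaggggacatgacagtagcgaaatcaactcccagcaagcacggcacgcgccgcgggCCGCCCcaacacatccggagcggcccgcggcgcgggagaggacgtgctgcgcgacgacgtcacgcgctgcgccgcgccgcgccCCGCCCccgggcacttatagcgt

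The Snrpg stretch held 1 ETS match and 1 CCAAT match, the Hnrnpul1 stretch 3 CCAAT matches and 1 GC box, and the Srsf6 stretch 2 GC boxes. The ETS motif was present in 32.8% of the members' 300-base windows and in 8.86% of all 32851 promoter windows of that length. The GC box was present in 67.2% against 35.7%, and CCAAT in 47.5% against 37.4%. Further motifs were also searched on both strands. TATAAA was found in 9.84% of the members' windows against 13.6% of all, CACGTG in 6.56% against 7.15%, the NRF1 motif in 1.64% against 0.971%, and the YY1 motif in 1.64% against 0.852%. The median number of CG dinucleotides per window was 25 in the members and 7 in all windows. Matches of different motifs may overlap, and a match describes the sequence and not a bound site.

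Each preparation was checked for blood cells and for arrays that stood apart. Transcripts of red cells (Alas2, mean 14.3 in whole RNA), platelets (Pf4, 12.4), neutrophils (S100a8, 7.97), T cells (Cd3e, 5.33) and B cells (Ms4a1, 4.67) were all measured, whereas the T cell coreceptor Cd4 (3.27) was near the floor and Pax5 and Ncr1 were too dim to be tested. Between 2196 and 3122 probe sets per array reached log2 5 in whole RNA and between 3802 and 5278 in GLOBINclear RNA. After globin reduction the hybridization spike-ins averaged 9.50 instead of 11.6, the poly-A spike-ins averaged 8.66 instead of 6.96, and the difference between the 3′ and 5′ probe sets of the control genes averaged 1.17 instead of 0.130. The mouse C57Bl/6J replicate 1 stood apart in the genes described here. It gave the highest whole RNA array for 29 of the 49 tested members and the highest GLOBINclear array for 31, against 13.4% and 17.1% of all 11353 tested genes. Its T cell marker mean (5.95 in whole RNA, where the other 17 mice ranged from 3.90 to 4.76) and its B cell marker mean (6.04, against 3.20 to 5.65) were also the highest. Strain counts and medians over the members are therefore also given without this mouse.

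Globin reduction was followed by a higher signal for most of the splicing genes. Of the 49 tested members 37 rose, 3 fell and 9 did not pass the threshold (limma with the mouse as a block, Benjamini-Hochberg adjusted p under 0.05). The background was 44.7% of all tested genes rising and 43.1% falling. At least 2-fold rises were found for 23 members (background 22.1%), and 26 members rose with a higher signal in 18 of 18 mice (background 26.6%), while 2 fell in 18 of 18 (background 30.4%). The median change over the members was 0.92, and over all tested genes 0.04. Within single mice the median change over the members averaged 0.87 ± 0.19 (SD, n = 18) and ranged from 0.50 to 1.30, so that it was above 0 in every mouse. The counts rested on the scale: when all 36 arrays were quantile normalized to a common distribution, 19 members rose and 19 fell with a median of 0.00, and the share of rises among the calls over all genes moved from 50.9% to 41.2%. When the arrays were centred on the hybridization spike-ins alone, which moved opposite to the poly-A spike-ins, 49 rose and 0 fell with a median of 3.00. The median of all genes then moved to 2.12, and 99.8% of them rose. After centring each array on its median 41 members rose and 2 fell, against 49.4% of all tested genes rising and 4115 falling. Under quantile normalization 34.0% of all tested genes rose and 5499 fell.

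**Figure D1:**
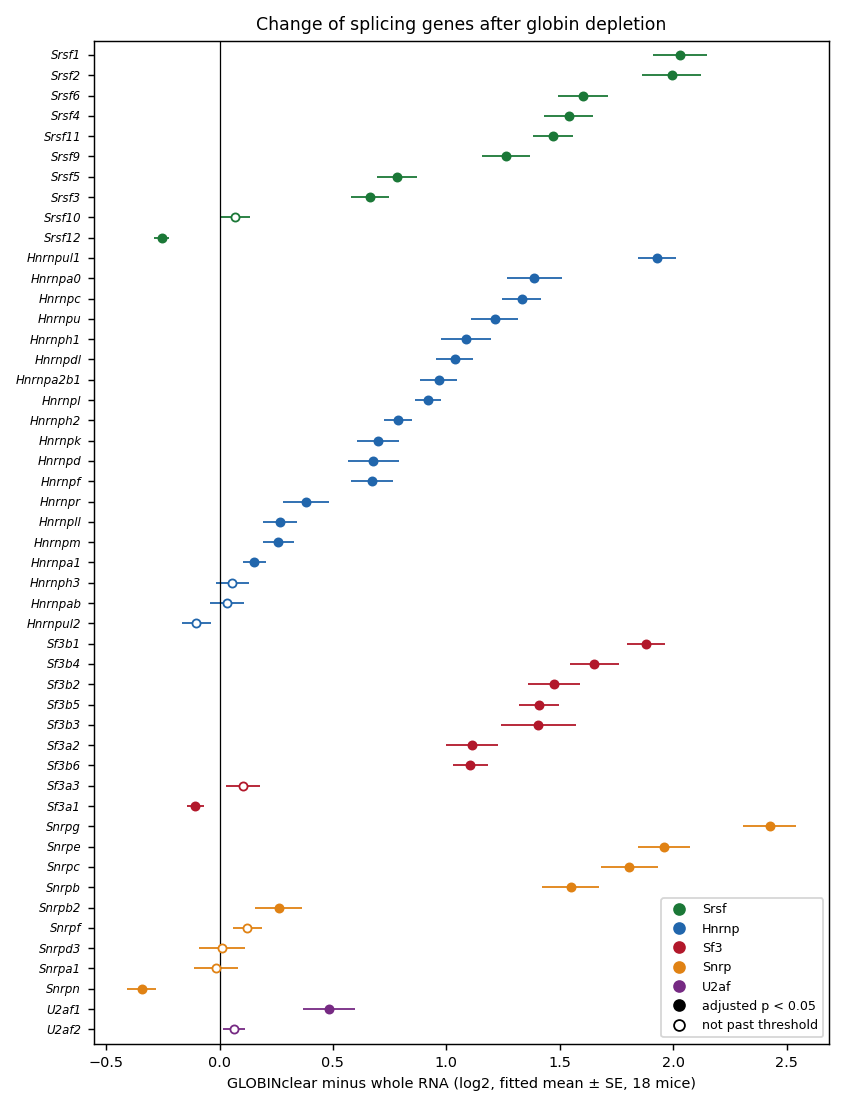
The plot of changes by gene shows the GLOBINclear minus whole difference (log2, x axis) of the 49 tested genes, grouped by family, as fitted mean with its standard error over 18 mice; filled circles passed an adjusted p under 0.05 and open circles did not. Snrpg lies farthest to the right at 2.43 and Snrpn farthest to the left at -0.34.

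Of the SR factor genes 8 of 10 rose and 1 fell, with a median change of 1.37. Srsf1, which binds exonic enhancers and also helps to choose the start of the intron, ranged in whole RNA from 3.68 to 6.96 (median 5.24) and in GLOBINclear RNA from 6.64 to 8.56 (median 7.29). A single whole RNA array, that of C57Bl/6J replicate 1 (6.96), reached the range after globin reduction, and the change was 2.03 ± 0.12 (SE, limma adjusted p = 4.26e-12), seen in 18 of 18 mice. Srsf2, known for its recurrent mutations in myeloid neoplasia, went from a range of 3.47 to 5.36 (median 4.37) to one of 5.26 to 7.39 (median 6.47). Its change was 1.99 ± 0.13 (adjusted p = 3.17e-11), again in 18 of 18 mice, and the ranges met at their ends. Srsf11, an SR-related protein of spliceosome assembly, separated the preparations: its whole RNA arrays lay between 4.34 and 6.26 and its GLOBINclear arrays between 6.29 and 7.55, with a change of 1.47 ± 0.09 (adjusted p = 7.5e-12). Srsf6 (1.60 ± 0.11), Srsf4 (1.54), Srsf9 (1.26), Srsf5 (0.78) and Srsf3 (0.66) rose as well. The whole RNA means of Srsf4 (3.41) and Srsf9 (3.24) were near the floor.

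Srsf12 and Srsf10 behaved differently from the rest of the SR genes. Srsf12, a splicing repressor related to Srsf10, was near the floor of the arrays at 3.38 to 3.72 (median 3.53) in whole RNA and at 3.01 to 3.41 (median 3.34) in GLOBINclear RNA. It fell by 0.26 on the log2 scale (SE 0.03, adjusted p = 2.56e-07) in 18 of 18 mice. Srsf10, which acts as a repressor of splicing when dephosphorylated, differed by 0.07 ± 0.07 (adjusted p = 0.345) and was higher after globin reduction in 10 of 18 mice.

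Among the hnRNP genes was the member whose rise had the smallest adjusted p. Hnrnpul1, an hnRNP U-like protein with roles in RNA processing and the DNA damage response, ranged from 5.98 to 8.21 (median 6.62) in whole RNA and from 7.40 to 9.99 (median 8.75) in GLOBINclear RNA. The groups overlapped, but within mice the signal rose by 1.93 ± 0.08 (SE, limma adjusted p = 6.25e-14) in 18 of 18.

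Of the 19 hnRNP genes 16 rose and 3 did not pass, with a median change of 0.70. Hnrnpl, which binds CA-rich elements, was clearly separated between preparations, with whole RNA at 6.66 to 7.26 (median 6.89) and GLOBINclear RNA at 7.33 to 8.17 (median 7.81). Its change was 0.92 ± 0.06 (adjusted p = 1.29e-11). Hnrnph2, a G-run binding protein, was separated too, with 3.74 to 4.35 in whole RNA, 4.42 to 5.29 in GLOBINclear RNA and a change of 0.79 ± 0.06. Together with Srsf11 and the SF3B subunit gene Sf3b4 they made 4 members whose GLOBINclear arrays all lay above their whole RNA arrays (background 5.55%). Hnrnpa0 (1.39), Hnrnpc (1.33), which binds uridine tracts, Hnrnpu (1.21), Hnrnph1 (1.09) and Hnrnpdl (1.04) also rose at least 2-fold. The whole RNA mean of Hnrnpa0 was 2.88, near the floor, so that the size of its change is not an exact fold.

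Smaller rises were measured for Hnrnpa2b1 (0.97), Hnrnpk (0.70), Hnrnpd (0.68), Hnrnpf (0.67), Hnrnpr (0.38), Hnrnpll (0.27), Hnrnpm (0.26) and Hnrnpa1 (0.15). Hnrnpa1, a general repressor of exon inclusion, was higher in 14 of 18 mice only on the probe set standing for it. Another Hnrnpa1 probe set rose from 3.69 to 5.35, a change of 1.66 in 18 of 18 mice, and a further one changed by -0.14. Hnrnpab, a single-strand RNA and DNA binding protein, ranged from 9.34 to 11.3 in whole RNA and from 9.60 to 11.2 in GLOBINclear RNA, and its difference of 0.03 ± 0.08 (adjusted p = 0.688) did not pass. Hnrnph3 (0.06) and Hnrnpul2 (-0.10) did not pass either. Under quantile normalization 13 hnRNP genes had negative differences where the deposited scale gave positive ones, from -0.01 for Hnrnph2 to -0.94 for Hnrnpab, whereas Hnrnpul1 (0.62) and Hnrnpa0 (1.17) still passed as rises.

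Among the SF3 genes 7 of 9 rose, 1 fell and the median change was 1.41. Sf3b1, the large SF3B subunit that contacts the branch point and is the spliceosome gene most often mutated in myelodysplasia, ranged from 3.36 to 6.19 (median 4.67) in whole RNA and from 5.69 to 7.73 (median 6.62) in GLOBINclear RNA. It rose by 1.88 ± 0.08 (adjusted p = 9.02e-14) in 18 of 18 mice, with an overlap between the brightest whole RNA arrays and the dimmest GLOBINclear arrays. Sf3b4, which tethers the complex to the precursor mRNA, rose by 1.65 from 2.38 to 3.40 in whole RNA to 3.58 to 5.64 in GLOBINclear RNA, without overlap. Its whole RNA arrays were near the floor. Sf3b2 (1.47), Sf3b5 (1.41), Sf3b3 (1.41), Sf3a2 (1.11) and Sf3b6 (1.11) rose by similar amounts. The whole RNA means of Sf3b3 (3.06) and Sf3a2 (3.47) were near the floor too. Of the SF3A genes only Sf3a2 rose. Sf3a3 differed by 0.10 ± 0.07 (adjusted p = 0.203), and Sf3a1, at 3.08 to 3.66 in whole RNA and 2.97 to 3.13 in GLOBINclear RNA, fell by 0.11 (adjusted p = 0.012).

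The Snrp genes were split. Snrpg, a core Sm protein, had the largest change of all members, from 4.47 to 6.58 (median 5.16) in whole RNA to 6.49 to 9.42 (median 7.61) in GLOBINclear RNA. The rise of 2.43 ± 0.12 (adjusted p = 2.45e-13) was seen in 18 of 18 mice, and the ranges overlapped in 1 array of each preparation. Snrpe (1.96) and Snrpb (1.55), further Sm proteins, and Snrpc (1.81), a U1 protein that reads the start of the intron, rose in 18 of 18 mice as well. The U2 protein Snrpb2 rose by 0.26 (adjusted p = 0.0255) and was higher in 10 of 18 mice.

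Sm proteins did not all share this rise on the probe sets that stood for them. Snrpf differed by 0.12 (adjusted p = 0.0787) and Snrpd3 by 0.01 (adjusted p = 0.915), while the U2 protein Snrpa1 differed by -0.01. Snrpn, an imprinted gene with its main expression in brain, fell by 0.34 (SE 0.06) in 18 of 18 mice, from 2.88 to 3.95 in whole RNA to 2.71 to 2.86 in GLOBINclear RNA, and was the member whose groups were separated downward (background 11.8%). The values after globin reduction lay at the floor. Over the 9 Snrp genes 5 rose, 1 fell and 3 did not pass, with a median of 0.26. U2af1, the subunit that reads the AG at the intron end, rose by 0.48 ± 0.12 (adjusted p = 0.000672) in 14 of 18 mice, and U2af2, the subunit that binds the polypyrimidine tract, differed by 0.06 ± 0.05 (adjusted p = 0.231).

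Signal level and direction went together. Among members with a mean of at most log2 3.5 over all arrays 1 of 6 rose and 3 fell, against 18.7% of all genes in that band rising (median change of the members -0.02 and of all genes -0.15). Between 3.5 and 5, 16 of 22 members rose with a median of 0.94, against 58.2% of all genes with a median of 0.39. Between 5 and 7, 14 of 14 members rose with a median of 1.34, against 93.0% of genes and a median of 1.47. Above 7, 6 of 7 rose with a median of 0.92, against 91.9% and 1.18. The members' medians were thus above those of all genes in both bands below log2 5 and below them in both bands above it. No test of these differences was made.

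**Figure D2:**
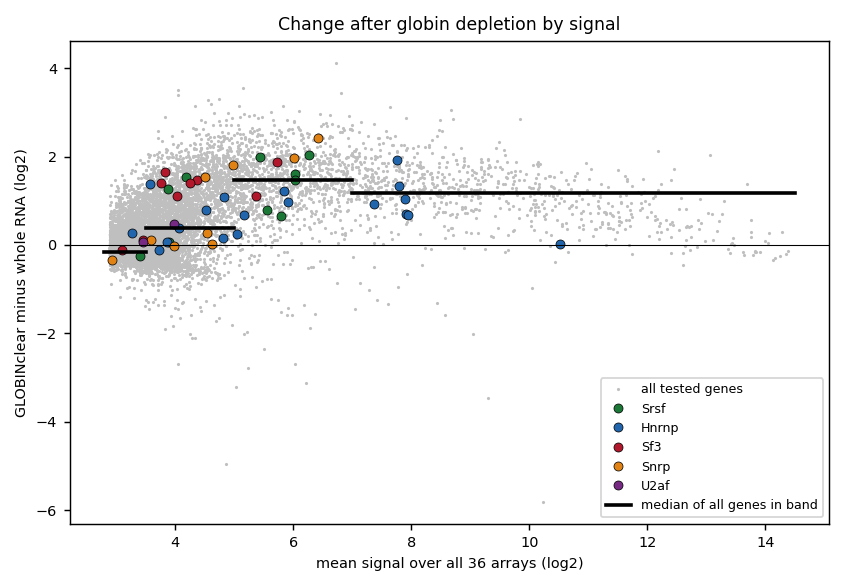
The plot of change against signal shows each of 11353 tested genes (grey) and the members by family (coloured), with the mean signal over all 36 arrays (log2) on the x axis and the GLOBINclear minus whole difference (log2) on the y axis; black bars are the medians of all genes in each of 4 signal bands. The bars run from -0.15 at the dim end to 1.47 between log2 5 and 7, and the falling members sit at the dim end.

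Marker transcripts of blood cells moved with preparation as well. Rises were called for 4 of 5 tested red cell markers, 3 of 6 T cell markers, 4 of 4 B cell markers, 2 of 3 NK cell markers, 4 of 5 neutrophil markers, 4 of 5 monocyte markers and 6 of 6 platelet markers, with medians of 1.30, 0.69, 1.82, 1.66, 1.49, 0.69 and 1.35. The pan-leukocyte gene Ptprc rose by 1.06. Falls were called for 1 red cell marker and 1 T cell marker. Of all tested genes 44.7% rose and 43.1% fell. The part of cell type, of spike-in level and of the 3′ to 5′ difference in the rise of the splicing genes was not tested.

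Other probe sets of the same genes often moved differently. Of the 49 tested members, 30 had further tested probe sets, 73 in all. Of the 48 with a mean above log2 3.5, 36 rose and 8 fell with a median of 0.74, and of the 25 at or below it, 7 rose and 13 fell with a median of -0.09. Of all tested genes at or below that level, each on its brightest probe set, 18.7% rose and 3571 of 5509 fell. In the bands above it 58.2%, 93.0% and 91.9% of genes rose. Of the 24 genes whose leading probe set rose and that had others, 20 had at least 1 other that rose and 16 had at least 1 other that fell. The matching shares over all genes were not computed. The leading rise of Snrpg had no such second measurement: its other probe set, at 5.06 in whole RNA, differed by -0.10 (adjusted p = 0.431). Hnrnpd, Hnrnph1 and Snrpc had no further probe set that rose either, but unlike that of Snrpg their other sets were near the floor. In GLOBINclear RNA these averaged 3.21 and 2.94 for Hnrnpd, 3.09 for Hnrnph1 and 3.25 for Snrpc. Signals at that level carry little besides background, so these sets cannot decide whether the rises recur.

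Srsf6 gave the widest contrast within a gene. The probe set standing for it rose by 1.60 and others rose by 1.74 and 1.28, but a further one fell from 5.63 to 4.54, a change of -1.09 ± 0.09 (SE, limma adjusted p = 9.48e-10) in 18 of 18 mice. The reverse was found for genes whose leading probe set had not risen. Another probe set rose by 1.63 for Hnrnpab, by 1.42 for Snrpd3, by 1.01 for Hnrnpul2, by 0.84 for Snrpa1 and by 0.35 for Srsf10. With each gene taken as the mean of all its probe sets, 40 of 47 tested members rose and 2 fell, with a median of 0.53. Of the 9354 genes tested in that way 50.3% rose and 3418 fell, with a median of 0.13. Where in each transcript these probe sets lie was not analysed here.

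**Figure D3:**
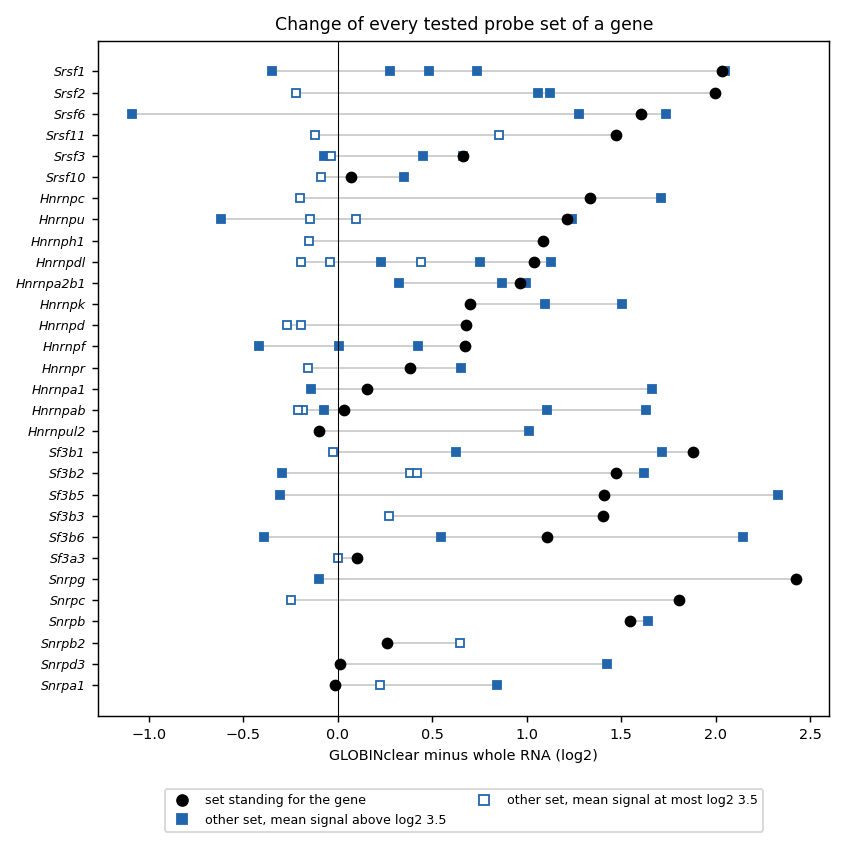
The plot of probe sets within genes shows, for the 30 members with more than 1 tested probe set, the GLOBINclear minus whole difference (log2, x axis) of the probe set standing for the gene (black circles) and of the others (squares, filled where their mean signal was above log2 3.5). The squares of Srsf6 reach from -1.09 to 1.74, and those of Snrpd3 and Hnrnpab lie above their circles at up to 1.42 and 1.63.

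The rise after globin reduction did not pass as different between strains for any member. Limma's F test of the strain by preparation interaction called 0 of 49 members (background 2.74%), and 9 had an unadjusted p under 0.05 (background 15.3%). The smallest p belonged to Hnrnph2 (unadjusted p = 0.00736, limma adjusted p = 0.13), whose change ranged from 0.44 in C3H/HeJ to 1.06 in A/J. For Srsf4 the change ranged from 1.04 in A/J to 2.26 in 129S1/ImJ (adjusted p = 0.156), and for Sf3b3, which bridges SF3B subunits, from 0.50 in A/J to 2.09 in 129S1/ImJ (adjusted p = 0.198). Hnrnpd ranged from 0.20 in C57Bl/6J to 1.38 in DBA/2J (adjusted p = 0.21), Sf3b2 from 0.94 in A/J to 1.97 in 129S1/ImJ (adjusted p = 0.287), and Hnrnpf from 0.29 in C57Bl/6J to 1.05 in DBA/2J (adjusted p = 0.288). The median change over the members was 0.91 in 129S1/ImJ, 0.81 in A/J, 0.91 in C3H/HeJ, 0.81 in C57Bl/6J, 1.05 in DBA/2J and 0.88 in FVB/NJ.

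Strain differences were few, and Hnrnpul1 and Srsf6 were the members that passed in both preparations. Limma's F test over the 6 strains called 2 members in whole RNA (background 4.77%) and 4 in GLOBINclear RNA (background 12.3%), with 2 in both (background 3.8%). At an unadjusted p under 0.05 there were 8 and 11 members (background 14.6% and 24.6%). The members' shares were thus near or below the background. Srsf5 and Srsf4 passed in GLOBINclear RNA alone.

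Hnrnpul1 was high in 129S1/ImJ and low in C57Bl/6J. In whole RNA the C57Bl/6J mice had 6.12, 5.98 and 6.13, and the 129S1/ImJ mice 7.33, 7.51 and 8.21. In GLOBINclear RNA the C57Bl/6J mice had 7.58, 7.50 and 7.40, and the 129S1/ImJ mice 9.32, 9.67 and 9.99. The C57Bl/6J mice were below every mouse of the other strains in both preparations. The A/J mice (9.09, 9.22 and 9.69 in GLOBINclear RNA) overlapped with 129S1/ImJ, FVB/NJ lay between 8.67 and 8.97, and DBA/2J and C3H/HeJ lay between 8.30 and 8.83 and overlapped with each other.

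The F test for Hnrnpul1 gave a limma adjusted p of 0.0106 in whole RNA and 0.000117 in GLOBINclear RNA, and it passed without each of the 18 mice in turn. With the arrays of a mouse averaged, 129S1/ImJ was 1.09 ± 0.17 (SE) above the mean of the other strains (adjusted p = 0.00117) and C57Bl/6J was 1.17 below it (a difference of -1.17 ± 0.17, adjusted p = 0.000564). Both differences had the same direction in whole RNA (1.06 and -0.86) and in GLOBINclear RNA (1.12 and -1.48), and they were 1.10 and -1.20 without C57Bl/6J replicate 1. Hnrnpul1 had a single tested probe set, so that no second measurement of this pattern was at hand. Probe sequence differences between strains were not examined.

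Srsf6 is an SR factor that enhances or represses exons depending on context. On the probe set standing for it, the signal was high in C57Bl/6J and low in FVB/NJ and DBA/2J. In whole RNA the C57Bl/6J mice had 6.43, 6.06 and 6.49, the FVB/NJ mice 4.40, 4.40 and 3.86, and the DBA/2J mice 4.48, 4.84 and 4.23. In GLOBINclear RNA the C57Bl/6J mice had 7.51, 7.37 and 7.48, the FVB/NJ mice 6.19, 6.36 and 6.07, and the DBA/2J mice 6.22, 6.23 and 6.97. The C57Bl/6J mice were above every other mouse in both preparations. FVB/NJ and DBA/2J overlapped, and 129S1/ImJ, A/J and C3H/HeJ lay between 6.53 and 7.19 in GLOBINclear RNA.

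For Srsf6 the F test gave a limma adjusted p of 0.000595 in whole RNA and 0.0126 in GLOBINclear RNA, past the threshold without each of the 18 mice in turn. C57Bl/6J was 1.04 ± 0.14 (SE) above the other strains (adjusted p = 0.000319) and 1.00 above them without its replicate 1. FVB/NJ differed by -0.97 ± 0.14 (adjusted p = 0.000891) and DBA/2J by -0.64 ± 0.14 (adjusted p = 0.0266). The DBA/2J call was lost without each of the DBA/2J mice (highest adjusted p = 0.196). The other Srsf6 probe sets were lower in FVB/NJ as well, by -0.51 (adjusted p = 0.0421, on the probe set that fell after globin reduction), -0.56 and -0.47, the latter values not past the threshold. In C57Bl/6J they differed by 0.18, 0.16 and 0.94, none past the threshold. In DBA/2J they differed by 0.31, in the opposite direction, -0.38 and -0.21, again none past the threshold.

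**Figure D4:**
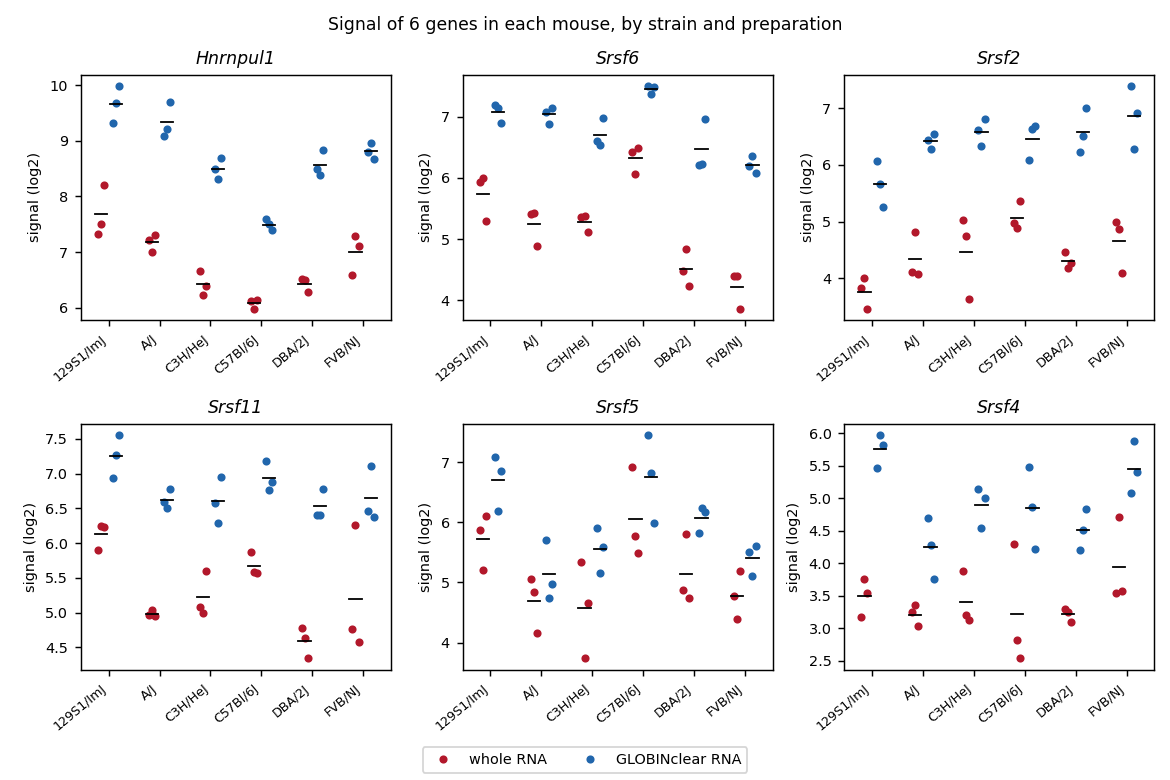
The plot of signal by mouse shows the log2 signal (y axis) of Hnrnpul1, Srsf6, Srsf2, Srsf11, Srsf5 and Srsf4 in each mouse (points) and the mean of each group of 3 (black bars), by strain and preparation. The C57Bl/6J points of Hnrnpul1 are lowest in both preparations (5.98 to 6.13 and 7.40 to 7.58) and those of Srsf6 highest (6.06 to 6.49 and 7.37 to 7.51).

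Srsf5 and Srsf4 differed among strains after globin reduction. Srsf5, an SR factor induced by insulin and growth signals, had 7.45, 6.83 and 6.00 in the C57Bl/6J mice and 7.09, 6.19 and 6.86 in the 129S1/ImJ mice, while A/J had 5.72, 4.74 and 4.98. Its F test gave a limma adjusted p of 0.274 in whole RNA and 0.0192 in GLOBINclear RNA, which became 0.0524 without A/J replicate 3. Srsf4 had 5.46, 5.97 and 5.83 in 129S1/ImJ and 4.70, 4.29 and 3.76 in A/J (adjusted p = 0.0345 in GLOBINclear RNA and 0.974 in whole RNA). In whole RNA most Srsf4 values were near the floor, and the call in GLOBINclear RNA was lost without 9 of the 18 mice in turn (129S1/ImJ replicates 2 and 3, A/J replicates 2 and 3, C57Bl/6J replicate 2, C3H/HeJ replicate 3, DBA/2J replicates 1 and 2, and FVB/NJ replicate 3).

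Set against the mean of the other strains, 129S1/ImJ had 3 called members (background 6.4%), A/J 1 (background 3.58%), C3H/HeJ 0 (background 1.39%), C57Bl/6J 2 (background 6.54%), DBA/2J 1 (background 2.2%) and FVB/NJ 1 (background 3.91%). Besides Hnrnpul1, the 129S1/ImJ calls were Srsf2 and Srsf11. Srsf2 had 3.83, 4.01 and 3.47 in the whole RNA of 129S1/ImJ and 6.06, 5.67 and 5.26 in its GLOBINclear RNA, the lowest group mean in either preparation. It differed by -0.86 ± 0.18 (SE, limma adjusted p = 0.00862), with an adjusted p of 0.0817 without 129S1/ImJ replicate 3. A second Srsf2 probe set differed in 129S1/ImJ by -1.26 (adjusted p = 0.000912) and in C57Bl/6J by 1.00 (adjusted p = 0.00491), whereas another differed in 129S1/ImJ by 0.47 (adjusted p = 0.469).

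The remaining calls were lost when single mice were left out. Srsf11 was 0.79 ± 0.21 higher in 129S1/ImJ (adjusted p = 0.041), with 6.93, 7.27 and 7.55 in GLOBINclear RNA against 6.29 to 7.19 in the other strains' mice, and the call was lost in 14 of the 18 fits that each left out a mouse. The mice whose removal kept it were C57Bl/6J replicate 1, C3H/HeJ replicate 3 and FVB/NJ replicates 2 and 3. The other Srsf11 probe sets differed in 129S1/ImJ by 0.28 and 0.05, neither past the threshold. With the mean of all its probe sets Srsf11 was 0.28 higher there (limma adjusted p = 0.0231). Srsf10 was lower in A/J by -0.31 ± 0.07 (adjusted p = 0.0286), with 3.49, 3.48 and 3.89 in GLOBINclear RNA, and the call was lost without each of the A/J mice (highest adjusted p = 0.158). The other Srsf10 probe sets differed in A/J by -0.07 and -0.14, neither past the threshold. In C3H/HeJ limma called 0 members, and 2 had an unadjusted p under 0.05.

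Taken over all members, 129S1/ImJ lay on the high side and A/J on the low side. In 129S1/ImJ 41 of 49 members were above the mean of the other strains, with a median difference of 0.26, where 45.5% of all tested genes were above and their median was -0.01. In A/J 40 of 49 were below, with a median of -0.23 (41.3% of all genes above, median -0.02), and in FVB/NJ 37 of 49, with a median of -0.13 (52.8% of all genes above, median 0.01). In C57Bl/6J 43 of 49 were above with a median of 0.22 (56.5% of all genes above, median 0.01), but without C57Bl/6J replicate 1, 39 of 49 were below with a median of -0.11 (61.5% of all genes above). In that fit 38 of 49 were below in A/J with a median of -0.15 and 30 of 49 in FVB/NJ with a median of -0.09, where 34.7% and 49.2% of all genes were above. In the same fit 129S1/ImJ had 42 of 49 above with a median of 0.33, and 11 members were called there in place of 3 (background without that mouse 10.9%). A/J then had 2 calls in place of 1 (background 4.47%), Srsf10 and Sf3b4 (-0.49, limma adjusted p = 0.00945). Higher in 129S1/ImJ in that fit were Hnrnpul1, Hnrnpa2b1, Hnrnpdl, Hnrnph1, Hnrnpr, Sf3a2, Sf3b4, Sf3b5, Srsf11 and Srsf6, by between 0.44 (Hnrnpr) and 1.10 (Hnrnpul1), and Srsf2 was lower. C3H/HeJ and DBA/2J had medians of -0.02 and -0.01, and without that mouse 0.06 and 0.04.

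**Figure D5:**
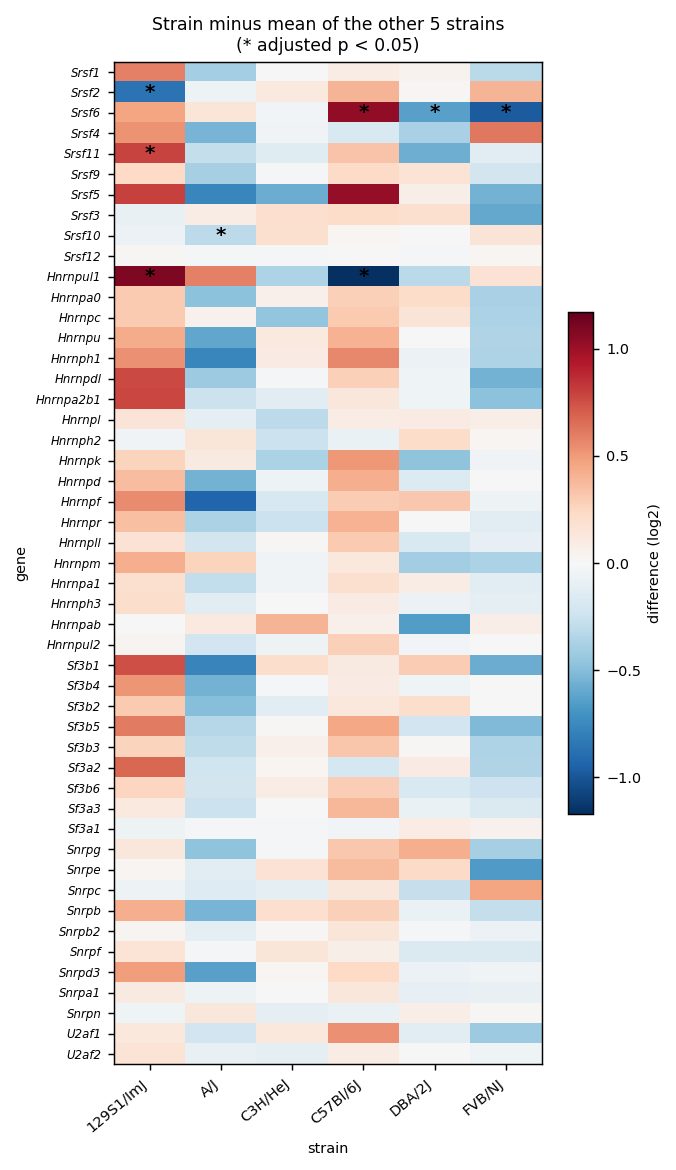
The map of strain differences shows each tested member (rows, by family) and strain (columns), coloured by the log2 difference of the strain from the mean of the other strains (each mouse's arrays averaged), red higher and blue lower; stars mark an adjusted p under 0.05. The 129S1/ImJ column is mostly red (41 of 49 above 0) and the A/J column mostly blue (40 of 49 below 0), while the stars are 8 in number.

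Some leukocyte markers also stood high in 129S1/ImJ and low in A/J and FVB/NJ. Ptprc differed by 1.31 in 129S1/ImJ, -1.04 in A/J, -0.999 in FVB/NJ and -0.01 in C57Bl/6J, none past the threshold. The 5 neutrophil markers had median differences of 1.71 in 129S1/ImJ (1 called higher), -0.84 in A/J and -1.21 in FVB/NJ. In the same order the T cell markers had 0.20, -0.44 and -0.16 (1 called higher in 129S1/ImJ and 1 lower in A/J), the B cell markers -0.60, -0.69 and -0.73 (1 called lower in A/J), the monocyte markers 0.47, -0.61 and -0.21 (1 called lower in A/J) and the NK cell markers 0.47, -0.37 and 0.02 (0 called). Platelet markers were called lower in 129S1/ImJ (2 of 6) and A/J (2 of 6) and higher in C57Bl/6J (3 of 6) and FVB/NJ (1 of 6). The T cell, B cell, NK cell, neutrophil and monocyte markers had medians of 0.52, 0.83, 0.72, -0.70 and 0.26 in C57Bl/6J (0 called). In DBA/2J the same lists had 0.11, 0.99, -0.15, 0.37 and -0.15 (0 called). In C57Bl/6J replicate 1 the Ptprc signal was 8.72 in whole RNA, against 7.38 and 5.42 in the other C57Bl/6J mice. Over all mice but this one Ptprc ranged from 5.41 to 8.75 there. The neutrophil marker mean of C57Bl/6J replicate 1 was 4.85 in whole RNA, where the other mice had a median of 5.31. The part of cell makeup in the strain differences of the splicing genes was not tested.

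Further spliceosome and nuclear RNA-binding genes outside the named families were measured by 9 lists of 184 genes, of which 151 were tested. Of these 106 rose (background 44.7%), 21 fell (background 43.1%) and 24 did not pass, with a median of 0.62 (all genes 0.04), and 54 rose at least 2-fold (background 22.1%). Among factors of early recognition and of U1 or U2, 15 of 18 rose and 3 did not pass (median 0.97), led by Sf1, the branch point binding protein, from 6.43 to 8.85 (2.42 ± 0.13), Puf60 (1.92) and Luc7l2 (1.30). The whole RNA mean of Puf60 (3.43) was near the floor. Among SR-like proteins and SR protein kinases 17 of 23 rose and 3 fell (median 0.74). The nuclear speckle scaffolds Srrm2 (from 4.97 to 7.93, a change of 2.96 ± 0.10) and Son (from 3.78 to 6.71, 2.92 ± 0.10) and the exon junction protein Rnps1 (2.38) led this list, each in 18 of 18 mice.

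Spliceosomal helicases rose in 8 of 12 cases and fell in 2 (median 1.20), with Ddx39b, which loads U2 and serves mRNA export, at 2.05, Ddx3x at 2.01 and Ddx17 at 1.94. Of the Lsm ring genes 6 of 7 rose (median 0.77), led by Lsm3 (1.99), Lsm4 (1.20) and Lsm6 (1.12). Of the Prp19 complex and activation factors 14 of 20 rose and 3 fell, among them Cdc5l (2.06), Syf2 (2.03) and Bud31 (1.31). Of the U5 and tri-snRNP genes 10 of 13 rose and 2 fell. Txnl4a (2.09) and Prpf18 (0.73) rose, and Prpf38a fell by 0.31 in 18 of 18 mice. The whole RNA means of Cdc5l (2.91) and Prpf18 (3.34) were near the floor.

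The list of the SMN complex and Sm assembly was the least uniform, with 6 of 11 up, 2 down and a median of 0.16. The Sm chaperone Clns1a rose from 2.34 to 5.74 (3.40 ± 0.12), but its whole RNA level lay at the floor, so that the size of its change is not an exact fold. Gemin7 (1.62) and the cap methyltransferase Tgs1 (1.12) rose as well, with Tgs1 near the floor in whole RNA (2.95). Exon junction and export genes rose in 9 of 14 cases and fell in 3. The export receptor Nxf1 rose by 1.92 and Rbm8a by 0.85, while Thoc1, of the THO complex, fell by 0.61 in 18 of 18 mice. Nxf1 was near the floor in whole RNA (3.39). Of the other nuclear RNA-binding proteins 21 of 33 rose and 6 fell (median 0.49), with Mbnl2 (2.26), Pcbp1 (1.93) and Pcbp2 (1.63) leading.

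Strain differences among these genes passed limma's F test for 6 of 151 in whole RNA (background 4.77%) and 11 in GLOBINclear RNA (background 12.3%). Ppil1, a cyclophilin of the active spliceosome, was 1.76 higher in C57Bl/6J than in the other strains (limma adjusted p = 2.63e-08) and passed the F test in both preparations. Celf1, a regulator of splicing and mRNA decay, was 1.07 higher in A/J (adjusted p = 0.00143) and 0.76 higher in 129S1/ImJ (adjusted p = 0.0103) and passed in both preparations as well. Lsm3 was lower in 129S1/ImJ by -1.37 (adjusted p = 0.000386) and passed in both. The muscleblind genes Mbnl1 (-0.69 in DBA/2J, adjusted p = 0.00673) and Mbnl2 (-1.37 in 129S1/ImJ, adjusted p = 0.00433) passed the F test in whole RNA, and Ptbp1, the polypyrimidine tract binding repressor (0.93 in C57Bl/6J, adjusted p = 0.0131), Celf2 (1.29 in FVB/NJ, adjusted p = 0.0117) and Raly (-1.49 in DBA/2J, adjusted p = 0.0337) passed it in GLOBINclear RNA.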

How the data were processed

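Whole and GLOBINclear RNA of 18 mice was hybridized to 36 Affymetrix arrays. The authors deposited log2 expression values for 45101 probe sets, a scale read from the range of the values. The submitters' processing notes list the tools affy, GCRMA and MAS5. Joint or separate normalization of the preparations is not given in the sources used. Groups and replicate numbers came from the sample titles. By the series design whole and GLOBINclear RNA were paired within each of the 18 mice. Arrays of the same strain and number were taken as a pair, so the mouse was a block. Deviations from group means correlated within mice at a median of 0.379, over 0.1 in 17 of 18 and at -0.0783 in DBA/2J replicate 3. Between mice the median was -0.136, but deviations from a mean of 3 sum to 0, so this value is no independent check.

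Probe sets whose mean exceeded the median of all means (log2 2.89) were tested, 22518 in all, and these represented 11353 genes. Outside 64 controls, 34945 probe sets had 1 symbol, 932 several and 9160 none. Limma 3.58.1 in R 4.3.3 (lmFit, eBayes with trend) was fitted to all of them, with Benjamini-Hochberg adjustment over the 22518 and a threshold of 0.05. Background shares refer to the 11353 genes. Strain and interaction tests were moderated F tests. For contrasts of a strain with the others, the arrays of a mouse were averaged. The fits were checked on simulated data.

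The members and gene lists were chosen with earlier results of these data known. Genes were named by a rule: per family the 4 with the largest rise by moderated t and all that fell, members past the F tests, the 6 with the smallest interaction p, per strain up to 2 highest and 2 lowest, members untested or contradicted by another probe set, and 3 per further list. Other genes, the promoters and the motifs were chosen after values were seen. All 50 symbols matched the current gene table. Other scales, filters and probe set rules, fits without the block and fits without each mouse were tried. The number of arrays limits the precision.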

Additional observations from a re-analysis of the deposited data

How the results depend on the processing

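On the deposited scale 37 members rose and 3 fell, with a median change of 0.92. Under quantile normalization of all arrays 19 members rose and 19 fell, and the median change was 0.000496. Of all tested genes 34.0% then rose. Differences turned negative for Hnrnpab (-0.94), Hnrnpa1 (-0.86), Hnrnpm (-0.85), Snrpd3 (-0.83), Hnrnpf (-0.64), Srsf3 (-0.64), Hnrnpk (-0.61), Snrpb2 (-0.60), Hnrnpd (-0.42) and Hnrnpl (-0.42). Also turned negative were Srsf5 (-0.41), Hnrnpa2b1 (-0.36), Srsf10 (-0.29), Hnrnph3 (-0.28), Hnrnpdl (-0.27), Sf3b6 (-0.12), Hnrnpu (-0.0724), Hnrnpr (-0.0534) and Hnrnph2 (-0.00578). A/J and DBA/2J then had 0 calls each. Under spike-in centring the median change was 3.00, 0 members fell, Snrpa1 (2.06), Hnrnpul2 (1.97), Sf3a1 (1.97), Srsf12 (1.82) and Snrpn (1.73) turned positive, 1 member passed the strain test in GLOBINclear RNA, and DBA/2J had 0 calls. Spike-in centring moves all probe sets of an array by the same amount, and the median change of all genes was then 2.12. With the mean of all probe sets the median change was 0.53, Hnrnpul2 (0.46) and Snrpa1 (0.35) turned positive, C57Bl/6J had 4 calls and DBA/2J 0. Median centring turned Snrpa1 to 0.0651. Without the trend A/J had 2 calls, and without the filter DBA/2J had 0. In whole RNA alone 129S1/ImJ had 1 call, A/J 0 and DBA/2J 0, and in GLOBINclear RNA alone DBA/2J had 0. The cause of these changes in calls was not tested.

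Without the replicate block 37 members rose and 3 fell, and no call of the counts changed. Over the fits that each left out a mouse, 36 to 38 members rose, 3 fell, the median change was 0.89 to 0.94, 2 to 3 members passed the strain test in whole RNA and 2 to 6 in GLOBINclear RNA, and 0 passed the interaction. The calls were 2 to 11 for 129S1/ImJ (11 without C57Bl/6J replicate 1), 0 to 3 for A/J (0 without any of its mice, 3 without C57Bl/6J replicate 3), 0 for C3H/HeJ, 2 to 4 for C57Bl/6J (4 without its replicate 3), 0 to 1 for DBA/2J and 1 to 2 for FVB/NJ (2 without C57Bl/6J replicate 3). Differences near 0 changed sign in some of these fits: Snrpa1 ranged from -0.0839 to 0.0219, Snrpd3 from -0.0534 to 0.0681 and Hnrnpab from -0.00572 to 0.0712. Signals below about log2 3.5 carry little besides background, which limits the falls of Srsf12, Snrpn and Sf3a1 and all strain comparisons of dim members. The sizes of the rises of Hnrnpa0, Hnrnpll, Sf3b3, Sf3b4, Sf3a2, Srsf4 and Srsf9, with whole RNA means below that level, are limited in the same way. So are those of Clns1a, Cdc5l, Tgs1, Prpf18, Nxf1 and Puf60 among the further genes.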

Other observations

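Probe sets shared by several gene symbols were not used for the 50 genes and are given here as values. The set shared by the Sm gene Snrpd2 and Gm5848 rose from 4.85 to 7.39, a change of 2.54 ± 0.10 (SE, limma adjusted p = 1.42e-14) in 18 of 18 mice. The set shared by Snrpd1 and Gm14277 rose by 0.29 (adjusted p = 0.00847). The 4 sets shared by Hnrnpa3 and Gm6793 differed among themselves, with changes of 1.23, 0.47, 0.06 and -0.41. The set shared by the imprinted Snrpn and Snurf fell by 0.31 in 18 of 18 mice, at 3.60 in whole RNA and 3.29 in GLOBINclear RNA. The sets shared by U2af1l4 and Igflr1 changed by -0.12 and -0.18.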
